A study of Mus musculus with 12 samples.

Results

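The genes described here are 10 mouse genes of the epithelial-mesenchymal transition (EMT). Snai1, Snai2, Twist1, Twist2, Zeb1 and Zeb2 encode transcription factors of the transition, Vim and Fn1 encode the structural proteins vimentin and fibronectin, and Esrp1 and Esrp2 encode epithelial splicing regulators. They were taken by name and not by a cut on measured values, but the set was chosen with earlier results of these data known. All 10 were found, on 20 of the 41174 probes of the array and among its 21179 named genes. The label "regulators" covers 8 of them, since vimentin and fibronectin are products of the mesenchymal state and not regulators of it.

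EMT is the change by which epithelial cells, which are joined to each other and polarised, become single, motile mesenchymal cells. The SNAI and ZEB proteins are zinc finger repressors that bind E-box sequences, with E-cadherin as their best known target, and the TWIST proteins are basic helix-loop-helix factors that act in the same programme. ESRP1 and ESRP2 bind RNA and keep epithelial exons in messages such as that of FGFR2, and their loss is part of the change. Mouse ES cells express E-cadherin and grow as tight colonies, and the same regulators act in the embryo at gastrulation, in the neural crest and in parietal endoderm.

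Total RNA was measured on arrays of 1 colour (Cy3) in 2 groups of mouse ES cells, 3 biological samples after 3 days in retinoic acid and 3 biological samples left undifferentiated, each on 2 technical arrays. The series concerns acetylation of H4K16 in differentiating ES cells, and the arrays give the expression side of it. The labels name no strain, clone, culture on feeders or dose, and do not say that the biological samples were separate cultures, so the p-values cover only how far these samples differed, which may be technical. The small number of arrays limits the precision of every value. Each value below is a normalised intensity, the mean of a sample's 2 technical arrays after quantile normalisation, and intensities of different probes are not compared with each other. Because whole cultures were measured, fewer cells of a type and less RNA per cell cannot be told apart.

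Raw median intensities ran between 37.4 and 96.6 over the 12 arrays, and between 53.8% and 85.0% of probes lay above background, set per array at the 95th percentile over negative controls. Profiles of the 6 samples correlated at 0.964 to 0.991 within a group and at 0.895 to 0.919 between groups. Of 8 ES cell markers, 7 were lower after retinoic acid, Pou5f1 among them, and all 8 were above background on every array of both groups, with summed intensities of 34430 to 44120 in the retinoic acid samples and 111000 to 159400 in the undifferentiated samples. Undifferentiated replicate 3 stood apart on several of the 10 genes, and results that rest on it are given with and without it. For all 10 it was the lowest or the highest of the undifferentiated samples, 5 each way, beside 44.8% of all tested genes where it was the lowest and 27.5% where it was the highest.

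After retinoic acid, 5 of the 10 genes were higher, namely Snai2, Twist1, Twist2, Zeb2 and Vim. Snai1, Zeb1, Fn1, Esrp1 and Esrp2 were not called. Twist2 and Zeb2 were above background on 3 of the 6 undifferentiated arrays, so they passed the filter only through their retinoic acid arrays. With a probe required to be above background on all 12 arrays, those 2 were left out and 3 members were called. By limma 0 of the 10 were lower on their brightest probe, and at an unadjusted p under 0.05, which 42.8% of all genes met, 6 were higher and 0 lower. Calls were made below an adjusted p of 0.05 in limma's moderated test, fitted over all 15326 tested genes, and this test called 32.3% of all genes, with 18.7% of all genes higher and 13.6% lower. The groups did not overlap for 6 of the 10 genes, against 46.6% of all genes tested. The median log2 fold change of the 10 was 0.89, beside 0.0035 over all genes tested. Without undifferentiated replicate 3, 6 were higher, 1 was lower and 3 were not called. That fit called 2541 genes higher and 2099 lower of 15951 tested. Leaving out any other sample gave 3 or 4 members called. Of the 20 probes, 14 were bright enough to test, with 6 higher, 2 lower and 6 not called. Of the 26587 probes tested on the array 25.5% were called, 14.0% higher and 11.5% lower.

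**Figure D1:**
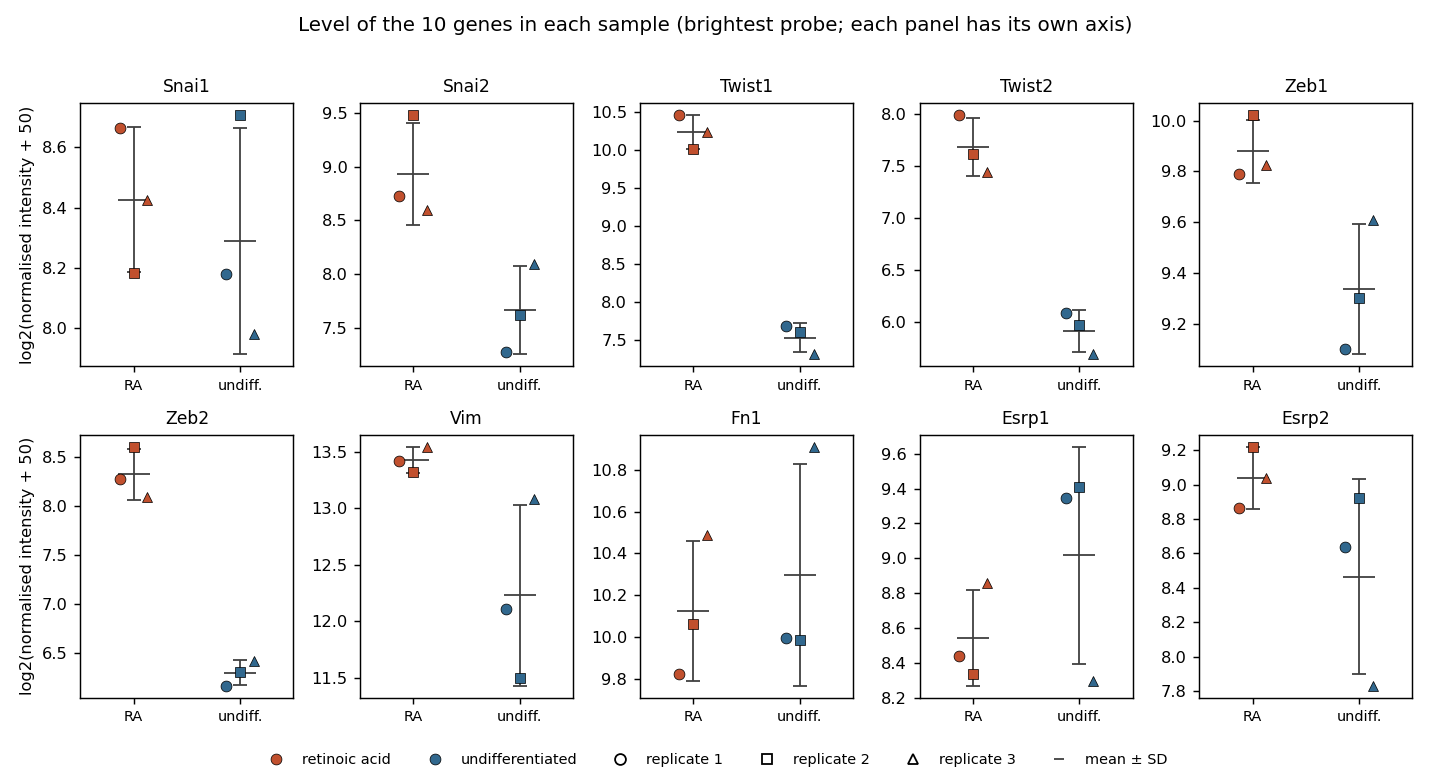
Level of each of the 10 genes in each sample, as log2 of the normalised intensity plus 50, on the gene's brightest probe. Points are biological samples (mean of 2 technical arrays), retinoic acid on the left and undifferentiated on the right of each panel, with the mean and SD of 3 samples. The groups lie apart for Snai2, Twist1, Twist2, Zeb1, Zeb2 and Vim, and overlap for Snai1, Fn1, Esrp1 and Esrp2.

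Promoter sequence, taken from RefSeq on assembly GRCm38.p6, was matched for 5 of the 10 genes and is shown for all 5, to set 4 of the 5 genes called higher (Twist1, Twist2, Zeb2 and Vim) beside Snai1, which was not called. Each window is the 250 bases before the start site, read on the gene's strand, and capitals mark matches to CAGGTG (or CACCTG, its other strand) and to CCAAT (or ATTGG). Twist1 lies at chr12:33957421-33957670 (plus strand), Twist2 at chr1:91801211-91801460 (plus strand), Zeb2 at chr2:45117443-45117692 (minus strand), Vim at chr2:13574061-13574310 (plus strand) and Snai1 at chr2:167537945-167538194 (plus strand).
Twist1: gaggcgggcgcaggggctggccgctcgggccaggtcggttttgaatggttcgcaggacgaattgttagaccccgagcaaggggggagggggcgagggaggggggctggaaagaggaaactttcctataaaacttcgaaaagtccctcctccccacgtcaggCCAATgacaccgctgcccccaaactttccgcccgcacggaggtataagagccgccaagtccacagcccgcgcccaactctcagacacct
Twist2: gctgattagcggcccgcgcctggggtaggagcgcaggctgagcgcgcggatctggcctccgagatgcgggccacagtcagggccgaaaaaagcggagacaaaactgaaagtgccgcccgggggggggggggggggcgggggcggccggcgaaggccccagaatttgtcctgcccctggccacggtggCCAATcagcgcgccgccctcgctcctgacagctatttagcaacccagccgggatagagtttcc
Zeb2: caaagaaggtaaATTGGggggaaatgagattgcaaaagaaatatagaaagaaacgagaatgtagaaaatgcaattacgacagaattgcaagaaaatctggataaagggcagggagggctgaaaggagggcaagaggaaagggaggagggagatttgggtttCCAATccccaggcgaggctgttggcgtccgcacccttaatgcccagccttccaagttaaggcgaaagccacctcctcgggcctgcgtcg
Vim: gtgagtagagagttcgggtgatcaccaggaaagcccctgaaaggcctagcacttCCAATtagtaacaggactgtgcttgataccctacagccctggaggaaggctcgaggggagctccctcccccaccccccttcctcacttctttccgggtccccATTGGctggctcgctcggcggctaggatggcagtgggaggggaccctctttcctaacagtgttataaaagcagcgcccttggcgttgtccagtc
Snai1: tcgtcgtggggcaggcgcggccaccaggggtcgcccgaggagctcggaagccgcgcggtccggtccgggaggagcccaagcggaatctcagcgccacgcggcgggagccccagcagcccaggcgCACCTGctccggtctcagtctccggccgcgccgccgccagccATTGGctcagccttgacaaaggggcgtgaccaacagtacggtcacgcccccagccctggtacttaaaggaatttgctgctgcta
CAGGTG, an E-box that SNAI and ZEB proteins are known to bind, was present in the Snai1 window only, with its first base at -126 from the start site, and 17.2% of 32817 RefSeq promoters of the same length held it. The CCAAT box, the site of the factor NF-Y, was present in all 5 of these windows, beside 33.8% of all promoters. Its first bases lay at -89 in Twist1, at -63 in Twist2, at -238 and -89 in Zeb2, at -196 and -94 in Vim and at -84 in Snai1. Neither CATCTG, an E-box bound by TWIST proteins, nor AGGTCA, the core element of nuclear receptor sites, was in the 5 windows, with 14.5% and 14.0% of all promoters holding them. Zeb2 has 3 further annotated start sites, whose windows held none of the 4 motifs, each searched on both strands.

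Among the transcription factors, Twist1, a basic helix-loop-helix factor of mesoderm and cranial neural crest, had the largest log2 fold change of the 10 genes. Its normalised intensity was 1353, 980.4 and 1156 in the retinoic acid samples, against 155, 143 and 108 in the undifferentiated samples. All retinoic acid samples lay several times above all undifferentiated samples, and technical arrays of a sample differed by at most 0.12 on the log2 scale. The log2 fold change was 2.71 ± 0.18 (SE, n = 3 each), a 6.53-fold difference on the scale with 50 added, with an adjusted p of 4.2e-05 in limma. Twist1 was called in all 22 alternative settings tried, with log2 fold changes between 2.60 and 3.10. It has 1 probe, so the settings that change the probe could not change its value.

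Twist2, the close paralogue of Twist1 known from dermis and other mesenchyme, was dim in undifferentiated cells. It read 227, 146 and 123 in the retinoic acid samples, against 18.4, 12.9 and 1.5 in the undifferentiated samples. The groups did not overlap, and only 3 of the 6 undifferentiated arrays were above background, against 6 of 6 retinoic acid arrays. The log2 fold change was 1.77 ± 0.20 (SE, n = 3 each) with an adjusted p of 0.00043 in limma. Adding 50 before the logarithm holds down the change of so dim a gene, and with 1 added the log2 fold change was 4.29. The technical arrays of retinoic acid replicate 1 differed by 1.23 on the log2 scale for this probe, and with all 12 arrays fitted and the sample as a random block the adjusted p was 0.056.

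Snai2, which encodes Slug, the zinc finger repressor of neural crest and mesoderm, rose. It read 373, 664 and 337 in the retinoic acid samples, against 105, 148 and 224 in the undifferentiated samples. Retinoic acid replicate 2 was the highest sample and undifferentiated replicate 3 the closest of its group to the retinoic acid samples, without overlap. Snai2 changed by 1.27 ± 0.29 on the log2 scale (SE, n = 3 each), with an adjusted p of 0.013 in limma. Without undifferentiated replicate 1 it was 1.07, with an adjusted p of 0.0502.

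Snai1, which encodes Snail, the repressor needed for gastrulation in the mouse, was not called. It read 356, 241 and 294 in the retinoic acid samples, against 239.9, 368 and 202 in the undifferentiated samples. The groups overlapped, and the highest sample of all was undifferentiated replicate 2. Its log2 fold change was 0.14 ± 0.23 (SE, n = 3 each), with a 95% interval from -0.39 to 0.67 and an adjusted p of 0.70 in limma. Without undifferentiated replicate 3 it was -0.018, and Snai1 was called in none of 22 alternative settings. Snai1 also has 1 probe, so those that change the probe left its value as it was.

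Zeb2, a zinc finger and homeodomain repressor with roles in neural crest and nervous system, rose on its brightest probe. That probe read 261, 340.3 and 223 in the retinoic acid samples, against 22.0, 29.4 and 36.0 in the undifferentiated samples. The groups lay far apart, and 3 of the 6 undifferentiated arrays were above background. Retinoic acid samples exceeded undifferentiated ones by 2.03 ± 0.18 on the log2 scale (SE, n = 3 each), with an adjusted p of 0.00015 in limma, and 3.21 with 1 added in place of 50. The gene has 5 probes. The second probe read 58.1, 33.6 and 62.5 in the retinoic acid samples, against 17.7, 18.6 and 15.1 in the undifferentiated samples. It too was higher, with a log2 fold change of 0.59 ± 0.17 (SE) and an adjusted p of 0.037 over all probes. With the replicate number as a block this probe was not called, at an adjusted p of 0.057 in limma. The other 3 probes were at background on most arrays and were not tested. Their log2 differences were 0.40, 0.21 and -0.21.

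Zeb1, the paralogue of Zeb2 and a known repressor of E-cadherin and of the miR-200 microRNAs, was higher in every retinoic acid sample than in any undifferentiated sample, but missed the threshold. It read 841, 989.7 and 858 in the retinoic acid samples, against 499, 581 and 732 in the undifferentiated samples. Undifferentiated replicate 3 came closest to the retinoic acid samples. The log2 fold change was 0.54 ± 0.18 (SE, n = 3 each) with an adjusted p of 0.052 in limma. Without undifferentiated replicate 3 the log2 fold change was 0.68 with an adjusted p of 0.022, and with technical array 2 alone it was 0.67 with an adjusted p of 0.031. Zeb1 was called in 3 of 21 alternative settings. A second probe of Zeb1 was above background on none of the 12 arrays.

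Whether related factors changed unequally was tested on the difference of their log2 levels in each sample. The change of Zeb2 exceeded that of Zeb1 by 1.48 ± 0.12 (SE), and that of Twist1 exceeded that of Twist2 by 0.94 ± 0.12 (SE). Snai1 changed by 1.13 ± 0.54 (SE) less than Snai2, a difference of -1.13 on the log2 scale, and Esrp1 by 1.05 ± 0.22 (SE) less than Esrp2, a difference of -1.05. The exact two-sided permutation p over the 6 samples was 0.1 for Zeb2 with Zeb1, for Twist1 with Twist2 and for Esrp1 with Esrp2, which is the smallest that 3 samples against 3 allow, and 0.2 for Snai1 with Snai2. Adjusted over the 4 comparisons, this permutation p was 0.133 for the Zeb, Twist and Esrp genes and 0.2 for the Snai genes. With 3 samples against 3, no pair could have reached the threshold for a call, whatever its values. The permutation test therefore cannot decide whether related factors changed unequally, and no conclusion is drawn from it. The Twist difference turned to -1.19 with 1 added in place of 50 and to -0.088 with 10 added.

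**Figure D2:**
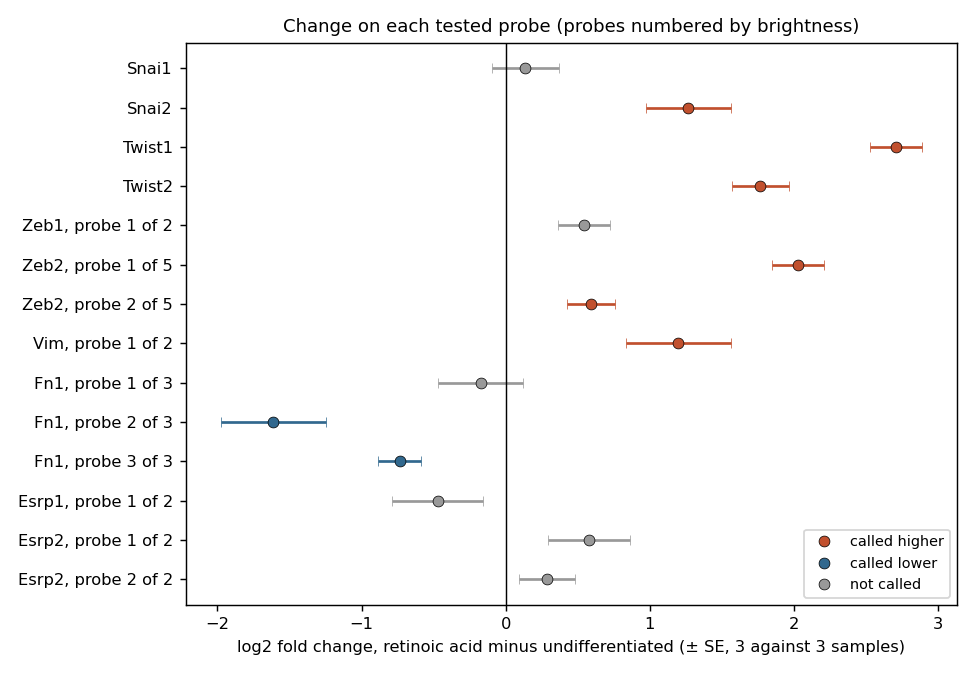
Log2 fold change (retinoic acid minus undifferentiated) with its SE on each of the 14 tested probes of the 10 genes, numbered by brightness within a gene. Of these probes 6 were called higher and 2 lower, both of the lower ones on Fn1, while the brightest Fn1 probe lay at -0.17.

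Vim, which encodes vimentin, the intermediate filament protein of mesenchymal cells, was among the bright genes in both groups. It read 10865, 10205 and 11905 in the retinoic acid samples, against 4361, 2839 and 8616 in the undifferentiated samples. The retinoic acid samples were close together, while undifferentiated replicate 3 lay near them and apart from the other undifferentiated samples. The log2 fold change was 1.20 ± 0.36 (SE, n = 3 each) with an adjusted p of 0.037 in limma, so Vim was called higher. The call was lost when any sample other than undifferentiated replicate 3 was left out, with adjusted p between 0.065 and 0.114. Without undifferentiated replicate 3 the log2 fold change was 1.62 with an adjusted p of 0.0023. Scaling each array to its 75th percentile gave 0.82 with an adjusted p of 0.087, and scaling to the median 0.85 with 0.077, in place of quantile normalisation. Vim was called in 10 of 21 alternative settings. The second Vim probe was at background on 10 of the 12 arrays and was not tested.

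Fn1, which encodes fibronectin, a matrix protein that integrins bind, was measured on 3 probes of the same transcript accession, and they differed. The brightest probe read 856, 1028.5 and 1389 in the retinoic acid samples, against 986, 997 and 1898 in the undifferentiated samples. These groups overlapped, with a log2 fold change of -0.17 ± 0.29 (SE, n = 3 each) and an adjusted p of 0.70 in limma, and without undifferentiated replicate 3 it was 0.13. The technical arrays of a sample differed by up to 0.72 on the log2 scale on this probe.

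The other Fn1 probes were lower after retinoic acid. The second probe read 197, 172 and 424 in the retinoic acid samples, against 1042, 531 and 1122 in the undifferentiated samples. It was lower without overlap, with a log2 fold change of -1.61 ± 0.37 (SE) and an adjusted p of 0.016 over all probes tested. The third probe read 25.3, 18.9 and 26.7 in the retinoic acid samples, where 2 of 6 arrays were above background, against 83.8, 63.0 and 71.3 in the undifferentiated samples. It was lower as well, with a log2 fold change of -0.74 ± 0.15 (SE) and an adjusted p of 0.0095. Fibronectin transcripts are known to differ by alternative exons, and the place of these probes within the transcript was not given. The mean over the 3 probes was lower, with a log2 fold change of -0.84 and an adjusted p of 0.027.

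Esrp1 and Esrp2, the splicing regulators of epithelial cells, were not called. Esrp1 read 298, 273 and 414 in the retinoic acid samples, against 599.7, 630.5 and 265 in the undifferentiated samples. Undifferentiated replicates 1 and 2 lay above all retinoic acid samples, and undifferentiated replicate 3 below them all. The log2 fold change was -0.47 ± 0.31 (SE, n = 3 each) with an adjusted p of 0.296 in limma. Without undifferentiated replicate 3 it was -0.83 with an adjusted p of 0.021, and Esrp1 was then lower.

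Esrp2 read 416, 547 and 477 in the retinoic acid samples, against 348, 436 and 177 in the undifferentiated samples. The groups overlapped through undifferentiated replicate 2, and undifferentiated replicate 3 was again the lowest sample. Esrp2 had a log2 fold change of 0.58 ± 0.28 (SE, n = 3 each) with an adjusted p of 0.159. The second Esrp2 probe read 240.5, 241 and 278 in the retinoic acid samples, against 238, 223 and 144 in the undifferentiated samples, a log2 fold change of 0.29 ± 0.19 (SE) with an adjusted p of 0.326. Esrp2 was called in none of 22 alternative settings, and the second probe of Esrp1 was at background on 11 of the 12 arrays.

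**Figure D3:**
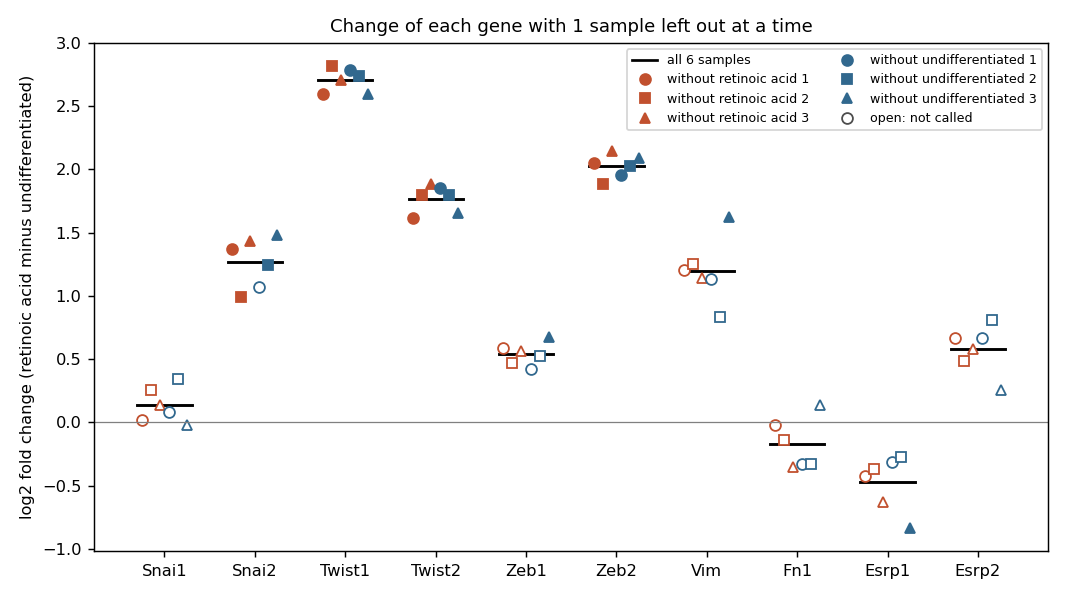
Log2 fold change of each gene over all 6 samples (bar) and with 1 sample left out at a time. Filled marks were called and open marks were not. Leaving out undifferentiated replicate 3 moved Vim to 1.62, Zeb1 to 0.68 and Esrp1 to -0.83, all called, while Twist1, Twist2 and Zeb2 were called whichever sample was left out.

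Undifferentiated replicate 3 deviated on both Esrp genes by an amount that few genes shared. Its log2 level lay -1.08 from the mean of the other undifferentiated samples for Esrp1 and -0.95 for Esrp2. Only 1.42% and 2.37% of the 15326 tested genes deviated further downward in that sample. It was also the lowest undifferentiated sample for 25 of 34 tested epithelial genes, or 73.5%, against 44.8% of all genes tested. In the other direction it was the highest for Vim, by 1.28 on the log2 scale, for Fn1 by 0.92, for Snai2 by 0.65 and for Zeb1 by 0.41, and for 7 of 8 ES cell markers. Its background limit was also the highest of the undifferentiated samples, at 51.6 and 44.1 on its technical arrays. Retinoic acid replicate 3 had limits of 45.7 and 33.5. Raw median intensities of replicate 3 were above those of all other arrays in both groups, at 67.0 and 67.3 undifferentiated and 96.6 and 93.5 after retinoic acid. The part of the background or makeup of undifferentiated replicate 3 in these results was not tested.

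**Figure D4:**
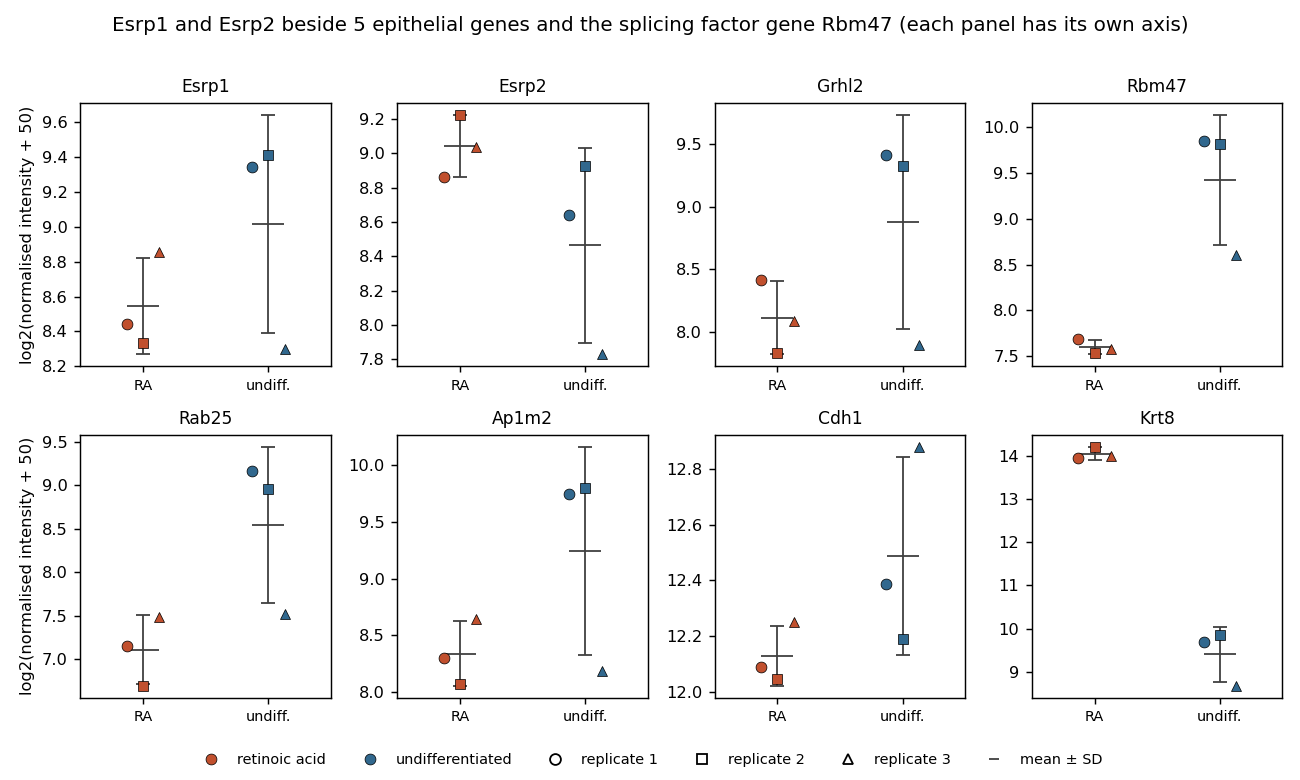
Log2 of the normalised intensity plus 50 for Esrp1 and Esrp2, for 5 epithelial genes and for the splicing factor gene Rbm47, retinoic acid on the left and undifferentiated on the right of each panel, with the mean and SD of 3 samples. Undifferentiated replicate 3 (triangle) lies below the other undifferentiated samples on all panels but that of Cdh1. These 6 genes were chosen after their values were seen.

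Genes of the epithelial state were measured beside the ESRP genes. Of 34 tested, 14 were higher and 1 lower, a called share of 44.1%, and their median log2 fold change was 0.54. The largest rises were of the simple keratin genes Krt19, at 5.15 ± 0.33 (SE), Krt18, at 4.78 ± 0.35 (SE), and Krt8, at 4.65 ± 0.30 (SE). Krt8 read 15873.5, 18970.5 and 16249 in the retinoic acid samples, against 782, 869 and 359 in the undifferentiated samples. Keratin 8 and 18 filaments are the earliest keratins of the embryo and mark its extraembryonic epithelia.

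Junction genes chosen after their values were seen gave mixed results. Cdh1, which encodes E-cadherin, read 4325, 4189.6 and 4836 in the retinoic acid samples, against 5316, 4622 and 7502 in the undifferentiated samples. These groups overlapped and Cdh1 was not called, with a log2 fold change of -0.36 ± 0.20 (SE) and an adjusted p of 0.226 in limma. Epcam, an epithelial adhesion molecule gene, was not called either, at -0.09. Dsp, which encodes desmoplakin of desmosomes, was higher by 2.96 ± 0.17 (SE) on the log2 scale, and F11r, a tight junction gene, by 2.68 ± 0.21 (SE).

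Rab25, which encodes a GTPase of epithelial vesicle traffic, was the 1 epithelial gene called lower. It read 92.4, 53.4 and 129 in the retinoic acid samples, against 523, 449.6 and 133 in the undifferentiated samples. Undifferentiated replicate 3 lay just above the highest retinoic acid sample, and the log2 fold change was -1.44 ± 0.43 (SE) with an adjusted p of 0.036. The call was lost when any sample other than undifferentiated replicate 3 was left out, with adjusted p between 0.059 and 0.118. With the replicate number as a block Rab25 was not called, and Jup, another gene of the list, was called lower in its place. Without undifferentiated replicate 3, 14 epithelial genes were higher and 4 lower. The 4 were Rab25 at -1.95, Ap1m2, a sorting adaptor subunit gene, at -1.43, Grhl2, a transcription factor gene of epithelial identity, at -1.26, and Elf3, an epithelial ETS factor gene, at -0.78, those beside Rab25 being named after their values were seen. In that fit the adjusted p in limma was 0.0019 for Rab25, 0.0029 for Ap1m2, 0.0051 for Grhl2 and 0.039 for Elf3.

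Of 25 mesenchymal genes tested beside Vim and Fn1, 14 were higher and 2 lower, a called share of 64.0%, with a median log2 fold change of 1.25. Tagln, which encodes the actin-binding protein transgelin, read 13472, 13211 and 13236 in the retinoic acid samples, against 303, 476 and 182 in the undifferentiated samples. It showed the largest change of the list, 5.25 ± 0.28 (SE) on the log2 scale. Col1a2, a collagen I chain gene, rose by 3.39 ± 0.19 (SE) and Cnn1, which encodes calponin, by 3.23 ± 0.18 (SE).

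Cdh2, which encodes N-cadherin and was chosen after its values were seen, read 540.0, 352 and 353 in the retinoic acid samples, against 25.8, 26.7 and 23.8 in the undifferentiated samples, where 3 of 6 arrays were above background. It was higher by 2.60 ± 0.19 (SE) on the log2 scale, and its second probe gave 0.42. Thy1, a surface glycoprotein gene of fibroblasts and other cells, was lower at -2.07 ± 0.17 (SE). Cdh11, which encodes a mesenchymal cadherin, was lower at -0.75 ± 0.19 (SE), but its second probe gave 1.0 and was higher. The Cdh11 call was lost without undifferentiated replicate 1, retinoic acid replicate 1 or retinoic acid replicate 3, with adjusted p between 0.064 and 0.081. Postn, Fap and Lum, genes of fibroblasts, were above background on too few arrays of either group to be tested.

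**Figure D5:**
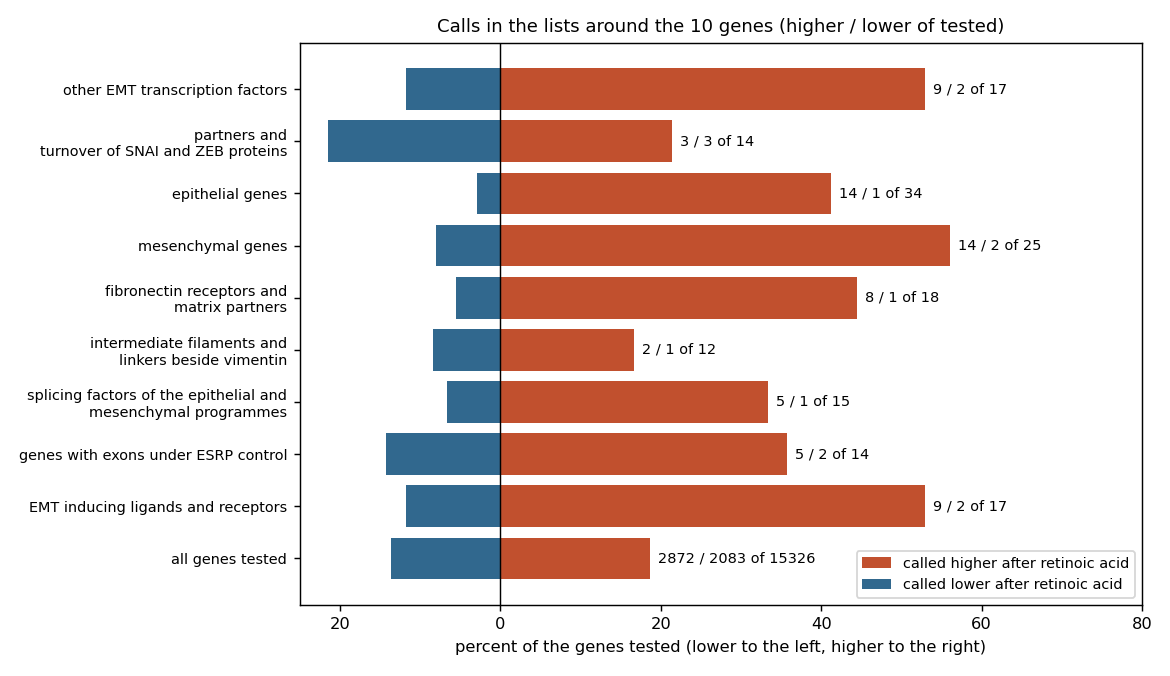
Share of the tested genes of each list called higher (right) or lower (left) after retinoic acid, with the counts, and the same for all genes tested. The lists of EMT transcription factors, mesenchymal genes and EMT inducing ligands and receptors had the largest called shares, at 64.7%, 64.0% and 64.7%, against 32.3% of all genes.

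Other transcription factors of EMT were called in 11 of 17 cases, 9 higher and 2 lower, or 64.7%, with a median log2 fold change of 0.95. Foxc2, a forkhead factor gene of mesenchyme, read 654, 760.0 and 581 in the retinoic acid samples, against 10.7, 27.6 and 10.5 in the undifferentiated samples, where 2 of 6 arrays were above background. Its log2 fold change was 3.44 ± 0.17 (SE), that of Prrx2, a homeobox gene of mesenchyme, 3.35 ± 0.20 (SE), and that of Foxc1, the paralogue of Foxc2, 3.18 ± 0.16 (SE). Klf8, a Krüppel-like repressor gene, was lower at -2.65 ± 0.20 (SE) and Id4 at -2.21 ± 0.14 (SE). The ID proteins bind E proteins and keep them off DNA, and Id1, Id2 and Id3 were higher, at 2.08, 2.91 and 2.21. The E protein genes Tcf12 and Tcf3, whose products pair with TWIST, were higher as well, at 1.87 and 0.95, and their second probes gave 1.62 and 0.41. Tcf4, also an E protein gene of the list, was not called, at 0.49 with an adjusted p of 0.051 in limma. The ID and E protein genes other than Id4 were named after their values were seen.

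Partners of SNAI and ZEB proteins and enzymes of their turnover were called in 6 of 14 cases, 3 in each direction, with a median log2 fold change of 0.18. Lats2, a Hippo pathway kinase gene, was higher at 2.24 ± 0.19 (SE), Ctbp1, a corepressor gene, at 1.01 ± 0.28 (SE) and Pak1, a kinase gene, at 0.74 ± 0.16 (SE). Ctbp2, the paralogue of Ctbp1, was lower at -1.66 ± 0.15 (SE), and read 4433, 3808 and 4419.6 in the retinoic acid samples, against 12783.5, 14172 and 13150.5 in the undifferentiated samples. Hdac2, a histone deacetylase gene, was lower at -0.83 ± 0.26 (SE) and Btrc, which encodes a ubiquitin ligase subunit that targets Snail, at -0.60 ± 0.19 (SE). The calls of Ctbp1 and Btrc were each lost when any of 5 samples was left out (all but retinoic acid replicate 2 for Ctbp1, all but undifferentiated replicate 2 for Btrc), with adjusted p up to 0.107 and 0.163. That of Hdac2 was lost without any sample other than undifferentiated replicate 2 or retinoic acid replicate 3, with adjusted p up to 0.123, and that of Pak1 without retinoic acid replicate 1 or 3, with adjusted p of 0.053 and 0.054.

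Ligands, receptors and signal carriers known to induce EMT were called in 11 of 17 cases, 9 higher and 2 lower, or 64.7%, with a median of 0.69. Smad3, which encodes a TGF-beta signal carrier, rose by 2.40 ± 0.22 (SE) and Met, the receptor gene for hepatocyte growth factor, by 2.34 ± 0.27 (SE). Tgfb2, a TGF-beta ligand gene, read 208, 296 and 161 in the retinoic acid samples, against 16.7, 23.0 and 13.7 in the undifferentiated samples, and 2 of 6 undifferentiated arrays were above background. Its log2 fold change was 1.98 ± 0.20 (SE). Pdgfa, a platelet-derived growth factor gene, was lower at -0.65 ± 0.17 (SE) and Egfr, the EGF receptor gene, at -0.60 ± 0.17 (SE). The Egfr call was lost when any sample other than retinoic acid replicate 2 was left out, with adjusted p up to 0.134, and the mean of its probes gave 0.27. The Pdgfa call was lost without undifferentiated replicate 1, retinoic acid replicate 1 or retinoic acid replicate 3, with adjusted p up to 0.088. Second probes of Smad3 and Met were not called, at 0.37 and 0.09.

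Fibronectin receptors and matrix partners were called in 9 of 18 cases, 8 higher and 1 lower, with a median of 0.42. Tgm2, which encodes a transglutaminase that cross-links fibronectin, rose by 2.79 ± 0.34 (SE), Sdc2, a heparan sulfate proteoglycan gene, by 2.16 ± 0.20 (SE), and Ltbp1, which encodes a TGF-beta binding matrix protein, by 2.16 ± 0.22 (SE). Sdc4, which encodes a fibronectin coreceptor, was lower at -1.18 ± 0.24 (SE). Second probes of Tgm2, Ltbp1 and Sdc4 were not called, at 0.55, 0.12 and -0.95. Itga5 and Itgb1, which encode the chains of the main fibronectin receptor and were chosen after their values were seen, were not called, at -0.14 and -0.07.

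Intermediate filament genes beside Vim showed 2 higher and 1 lower of 12 tested, with a median log2 fold change of -0.15. Prph, which encodes peripherin, was higher at 1.61 ± 0.31 (SE) and Synm, which encodes the vimentin partner synemin, at 0.53 ± 0.17 (SE). Nefl, a neurofilament gene, was lower at -1.86 ± 0.15 (SE), and its second probe gave -0.21. The Synm call was lost when any sample other than undifferentiated replicate 2 was left out, with adjusted p up to 0.134.

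Splicing factor genes beside Esrp1 and Esrp2 showed 5 higher and 1 lower of 15 tested, with a median of 0.37. Celf2, Mbnl2 and Mbnl1, whose products are RNA-binding splicing regulators, rose by 1.73 ± 0.24 (SE), 1.43 ± 0.30 (SE) and 1.01 ± 0.16 (SE), and the second probe of Mbnl1 gave -0.05. Rbm47, an RNA-binding protein gene of epithelia, was lower. It read 156, 135 and 140.3 in the retinoic acid samples, against 875, 852 and 339 in the undifferentiated samples, with a log2 fold change of -1.83 ± 0.32 (SE) and an adjusted p of 0.0041. Undifferentiated replicate 3 was the lowest of its group but above all retinoic acid samples, and without it the log2 fold change was -2.24.

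Genes with exons under ESRP control were called in 7 of 14 cases, 5 higher and 2 lower, with a median of 0.39. These probes measure a transcript's level and do not tell its exons apart unless they lie in one of them, and their positions were not given. Fgfr2, the fibroblast growth factor receptor whose exon choice is the classic ESRP target, was higher by 1.93 ± 0.16 (SE) on its brightest probe, while its second probe gave -0.56. Arhgef11 was higher at 0.71 ± 0.20 (SE). Nf2, which encodes merlin, was lower at -1.66 ± 0.33 (SE) and Enah, which encodes an actin regulator, at -0.49 ± 0.15 (SE). The Enah call was lost when any sample other than undifferentiated replicate 3 was left out, with adjusted p up to 0.13. That of Arhgef11 was lost when any sample other than replicate 2 of either group was left out, with adjusted p up to 0.106.

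Over the 9 lists together, 166 of 179 genes were tested, of which 69 were higher and 15 lower, or 50.6%, with a median log2 fold change of 0.47. The lists were chosen with results of these data known, so their shares describe them and are no evidence of a direction.

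Markers of other cell types were read in the same fit, and their lists did not move alike. Over all genes tested, 32.3% were called, 18.7% higher and 13.6% lower. The parietal endoderm list, whose cells derive from primitive endoderm and form in the embryo by a transition of this kind, had 10 of 13 tested genes higher and 1 lower. It shares Sparc with the mesenchymal list and Krt19 with the epithelial list. Its summed intensity was 34240 to 39000 in the retinoic acid samples, against 10720 to 13150 in the undifferentiated samples. The feeder fibroblast list had 4 of 7 higher and 1 lower, with sums of 2379 to 3371 in the retinoic acid samples and 1323 to 1523 in the undifferentiated samples. All 10 of its genes are also in the mesenchymal list. Of these, 7 were above background on all 6 retinoic acid arrays and 4 on all 6 undifferentiated arrays, while Postn was so on 0 retinoic acid arrays.

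The mesoderm list had 2 of 8 genes higher, with sums of 1096 to 1238 in the retinoic acid samples and 510.6 to 617.8 in the undifferentiated samples. The neural crest list had 2 of 9 higher and 1 lower, with sums of 2818 to 4075 in the retinoic acid samples and 1992 to 2798 in the undifferentiated samples. Its gene Sox9, named after its values were seen, is also in the list of EMT transcription factors. Sox9 was not called on its brightest probe, with a log2 fold change of -0.58, but its second probe gave 3.59. The trophoblast list, with 4 of 7 higher and 1 lower, summed to 3298 to 4057 in the retinoic acid samples and 2326 to 3342 in the undifferentiated samples. Sums of the neural list, with 2 of 9 higher and 2 lower, were 3980 to 4230 in the retinoic acid samples and 2928 to 3978 in the undifferentiated samples. Those of the visceral endoderm list were 27030 to 34130 in the retinoic acid samples and 36030 to 39000 in the undifferentiated samples, and limma called 0 of its 8 tested genes, with 0 higher and 1 lower at an unadjusted p under 0.05. Of the 10 visceral endoderm genes, 6 were above background on all 6 retinoic acid arrays and 6 on all 6 undifferentiated arrays. Apoa1 was above background on 0 retinoic acid arrays, and Ttr on 0 arrays of either group. Mixl1 of the mesoderm list, Elf5 of the trophoblast list and Neurod1 of the neural list were also above background on 0 retinoic acid arrays. The part of a change in cell makeup in the values of the 10 genes was not tested.

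The genes nearest to Twist1 in their values over the 6 samples, each gene centred on its undifferentiated mean, were H2-Q4, Plekho1 and Fras1, out of 14291 candidates. Their Euclidean distances from Twist1 were 0.323, 0.334 and 0.367, and their log2 fold changes 2.76, 2.65 and 2.65. H2-Q4 is a class I histocompatibility gene, Plekho1 encodes a pleckstrin homology domain protein, and Fras1 encodes an extracellular matrix protein. Fras1 read 423, 426 and 481 in the retinoic acid samples, against 34.7, 34.6 and 18.4 in the undifferentiated samples. No member was called lower on its brightest probe, so no such set was formed for a fall.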

How the data were processed

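Total RNA of 6 biological samples was hybridised to 12 arrays. The authors deposited scanner tables of net mean intensity per spot on a linear scale, per the file headers, so their software had taken off the local background, by a method these sources do not state. They also deposited a table of processed intensity for 41173 probes, used as an alternative, and limma and R 2.15.0 appear in the submitters' processing notes. In the header of undifferentiated replicate 2, technical array 2, the other technical array of that sample is named.

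Each scanner table held 41174 probes and 94 control spots. Accessions, then symbols, named 21179 genes through the RefSeq table of GRCm38.p6. No genome build of the array was given, and the coordinates and sequences printed are those of RefSeq. Intensities were quantile-normalised between arrays, 50 was added and log2 taken, which understates the change of dim genes. The technical arrays of a sample were averaged. Each gene was represented by its brightest probe and tested when, in at least 1 group, 4 or more of its 6 arrays showed that probe above the 95th percentile over 27 negative controls. Retinoic acid was compared with undifferentiated, 3 samples against 3, by lmFit and eBayes (R 4.3.3, limma 3.58.1), two-sided, with Benjamini-Hochberg adjustment over all 15326 genes or 26587 probes tested and no covariate. The procedure was tested on simulated data.

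The members and the lists around them were chosen with earlier results of these data known. Named were all members on each probe, of each list up to 3 called genes with the largest changes in each direction without overlap of the groups, and the 3 genes nearest to the member that rose most, except a gene that is not reported here. Plots were made in matplotlib 3.10.9 under Python 3.11.15. Alternatives changed the scaling, the filter, the added value, the probe, the technical arrays, the variance model, the threshold, the replicate block, the source of values and the samples included.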

Additional observations from a re-analysis of the deposited data

How the results depend on the processing

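For the 10 genes, 195 of 215 alternative values kept their side of the threshold, 14 fell short of it, 6 newly passed it, and 0 that had been called changed sign. Among the 195 are uncalled values that changed sign, such as Snai1 at -0.018 and Fn1 at 0.13 without undifferentiated replicate 3. For their tested probes the counts were 167, 27, 3 and 0 of 197. For the 44 other genes that met the naming rule, 858 of 959 values kept call and sign, 96 fell short and 5 changed sign. Members called numbered 3, against 5, and member probes 4, against 8, both at an adjusted p under 0.01 and when a probe had to be above background on all 12 arrays, a filter that leaves out Twist2 and Zeb2. At an adjusted p under 0.01, 2898 genes were called, 1784 higher and 1114 lower. With 1 sample left out at a time, between 3236 and 5261 genes were called, 2008 to 3166 higher and 1228 to 2099 lower, among them 3 to 7 members, 4 to 9 member probes and 64 to 82 list genes. Scaling arrays to the 75th percentile gave 2446 higher and 2644 lower genes (48.1% of calls higher) and scaling to the median 2383 and 2238 (51.6%), against 58% of calls higher with quantile normalisation, and moved the median of all genes to -0.088 and -0.06. The difference of the Twist1 and Twist2 changes turned to -1.19 with 1 added and to -0.088 with 10 added, and the added value itself moves a gene as dim as Twist2. The gene Cdh11 turned to 0.38 and the gene Egfr to 0.27 as means of their probes, and on the second probe the gene Cdh11 gave 1.0, the gene Mbnl1 -0.050 and the gene Fgfr2 -0.56. The cause was not tested.

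With the replicate number as a block, 4889 genes were called, 2849 higher and 2040 lower, with 5 members, 7 member probes and 84 list genes among them, so the calls of the members did not change. The paralogue differences stay at -1.13, 0.94, 1.48 and -1.05, since a block with each number once in both groups cannot change a difference of group means. Same-numbered samples deviated together with correlations of -0.06, 0.22 and 0.07, beside -0.26 to 0.26 for samples of unlike numbers. The numbers were therefore not taken to pair samples. Raw median intensities were highest in replicate 3 in both groups, and whether same-numbered samples were handled together was not tested. For probes near background, such as Twist2 and Zeb2 in undifferentiated cells, the signal limits the size of a change that can be read.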

Other observations

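A probe of a cDNA clone that the file describes as fibronectin 1, with a warning that the clone may be chimeric, was left out of the gene. It read 336, 609 and 264 in the retinoic acid samples, against 3036, 2894 and 2632 in the undifferentiated samples, without overlap. Its log2 fold change was -2.75 ± 0.27 (SE, n = 3 each), with an adjusted p of 0.00039 in limma over all probes. The sign is that of the 2 dimmer Fn1 probes, which gave -1.61 and -0.74.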
